A study of Mus musculus with 4 samples.

Results

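The Phf11 and Setdb2 cluster is a stretch of mouse chromosome 14 that holds several copies of the Phf11 gene and, at one end, the histone methyltransferase gene Setdb2. Its members were the loci of the deposited expression table that carry a transcript ID and overlap chr14:59860000-60062000 (mm9). There were 5 such loci among 15883 loci with a transcript ID and 17576 loci in all, and 0 loci without an ID lay in the window. The window was itself drawn around loci that were higher in pretreated cells, so the changes given below describe these loci and test nothing.

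Phf11 proteins are named for a plant homeodomain zinc finger, a fold found in many chromatin proteins. Setdb2 belongs to the SET domain family of lysine methyltransferases that act on histone H3, and in macrophages it is known as a gene induced by type I interferon that dampens inflammatory genes. Type I interferons bind a receptor that activates transcription factors, which bind interferon-stimulated response elements in the promoters of their target genes, and related sites are bound by interferon regulatory factors.

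The cells were mouse embryonic fibroblasts (MEFs) of C57BL/6 background in which an HA-tagged H3.3 cDNA stands in place of H3f3b, a gene for the histone variant H3.3; all groups share this knock-in, so no unmodified cells entered. The naive group was treated for 1 h with interferon-beta at 100 U/ml, and the pretreated group had met interferon before and was then treated for 1 h in the same way; how long the pretreatment and the interval after it lasted is not given in the labels. The series has 4 libraries, of which the naive and pretreated libraries at 0 h were not analysed here, so it was not seen whether a difference at 1 h was already there before the second treatment. Each group is 1 library, so the spread between replicates is unknown for every value below. RNA-seq stands in the title of the series and scTSS-seq in the description of its samples. The values are FPKM, fragment numbers scaled by transcript length and by the size of the library. Levels are set side by side between loci on this scale as for RNA-seq; the assay was not checked on reads, and if reads came from transcript starts only, scaling by length would not make loci comparable.

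The table gives no gene symbols, and 0 of its 38980 transcript IDs could be paired with a symbol, so that markers of fibroblasts or other cells, and other genes of the interferon and histone methylation pathways, were not looked up. Names within the window rest on spacing. The lower coordinates of the first 4 loci lay 32472, 44051 and 26443 bp apart. Among 55450 genes of GENCODE M21 (GRCm38), 1 set of genes had lower coordinates at exactly these distances: Gm6904, Phf11a, Phf11b and Phf11d. These genes lie on the minus strand, so the matched edges are the ends of their transcripts and not the transcription starts. Gm6904 is a synonym of the RefSeq entry Phf11, which RefSeq lists as a pseudogene and GENCODE as protein coding. The spans of XLOC_008135 (15776 bp) and XLOC_008136 (20610 bp) equalled those of Gm6904 and Phf11a to the base. XLOC_008137 spanned 20367 bp, against 20388 bp for Phf11b.

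The fourth locus, XLOC_008138, joined several genes. Its lower coordinate was at the distance of the lower Phf11d coordinate, and its upper coordinate at the distance of the upper one of a Setdb2 transcript. Its 93471 bp thus also take in Phf11c, and it carried 13 transcript IDs. The table gives this locus 1 value, and no separate level exists for Phf11d, Phf11c or Setdb2. The fifth locus, XLOC_007614 (5 transcript IDs), reached only 2199 bp into the window and ended at the distance of a transcript of Cab39l, a gene for a scaffold protein of the Lkb1 kinase complex, so it belongs to neither Phf11 nor Setdb2. It begins 87 bp beyond the end of XLOC_008138, and in GENCODE Cab39l lies on the plus strand and the Phf11 and Setdb2 genes on the minus strand. The map of change by distance shows how the window separates these loci.

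The starts of Phf11a, Phf11b, Phf11d and Setdb2 are shown, from loci that were all higher in pretreated cells. Phf11c also lies in the joined locus, but its start is not printed, and its window held none of the motifs marked below. The printed Phf11 starts are thus only those with a match. Phf11d and Setdb2 lie in the joined locus, which has no separate value for either gene, so neither was shown to be higher itself. The upstream sequences of these genes were alike only in part. Each line holds 150 bases from RefSeq (GRCm38.p6, minus strand), from 130 bases before the annotated start to 20 after it. Capitals mark matches to the core of an interferon-stimulated response element (GAAA, any 2 bases, then GAAA) in Phf11a (chr14:59297503-59297652) and Phf11b (chr14:59341311-59341460), and to the looser AANNGAAA, a core bound by interferon regulatory factors, in Phf11d (chr14:59365471-59365620). Setdb2 (chr14:59440861-59441010) has no capitals. No window of Gm6904 was used here, so sequence, motifs and CpG are not given for XLOC_008135.
Phf11a: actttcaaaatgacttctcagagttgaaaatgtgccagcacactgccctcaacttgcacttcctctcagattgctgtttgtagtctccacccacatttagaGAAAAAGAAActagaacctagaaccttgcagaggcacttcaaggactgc
Phf11b: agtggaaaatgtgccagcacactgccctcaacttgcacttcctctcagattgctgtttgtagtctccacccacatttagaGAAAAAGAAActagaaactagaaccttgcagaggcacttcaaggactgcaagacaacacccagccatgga
Phf11d: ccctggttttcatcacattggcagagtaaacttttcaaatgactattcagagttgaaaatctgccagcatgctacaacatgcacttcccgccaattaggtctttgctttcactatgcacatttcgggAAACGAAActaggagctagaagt
Setdb2: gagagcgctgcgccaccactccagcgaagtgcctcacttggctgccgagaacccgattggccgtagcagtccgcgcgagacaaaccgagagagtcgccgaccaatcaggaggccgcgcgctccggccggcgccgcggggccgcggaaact

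Motifs were searched on both strands of the whole RefSeq window of 300 bases, from 250 before to 50 after the start. The response element core was found in Phf11a, beginning 29 bases before the start, and in Phf11b, beginning 50 bases before it; 3.44% of all 32851 promoter windows hold it. AANNGAAA, which lies inside every match to the response element core on the same strand, was found in Phf11a, Phf11b and Phf11d, and 23.9% of all windows hold it. The Phf11d match began 3 bases before the start and lay opposite the Phf11a and Phf11b matches when the windows were aligned. TTCNNNGAA, the core of a gamma-activated site, is in 8.30% of all windows and was not among the letters of the Phf11a, Phf11b, Phf11c, Phf11d or Setdb2 windows. The windows of Phf11c and Setdb2 held none of these motifs. A match describes letters only and is not a bound site.

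Upstream sequences of the copies were of unequal likeness. The Phf11a and Phf11b windows were 98.2% identical over 279 aligned bases, while Phf11a and Phf11d shared 63.9% over 266. The Setdb2 window differed in kind: it held 29 CpG dinucleotides at 66.3% GC, against 0 CpG at 47.3% GC in both Phf11a and Phf11b, 3 in Phf11d and 2 in Phf11c. The median over all windows was 7 CpG, with quartiles of 3 and 20.

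All 4 loci from Gm6904 to the joined locus were higher in pretreated than in naive cells after 1 h of interferon-beta. The rise was 10.9-fold to 20.6-fold in FPKM. The joined locus has 1 value, which does not show whether Setdb2 itself was higher. The fifth locus, Cab39l, was 1.61-fold lower. By an estimate from 14 loci listed at 0 in 1 of the libraries, 1 read of the pretreated library is worth 2.03 naive reads in FPKM. If this holds, low values are less precise in pretreated cells. The number of reads behind each value is not given, so the estimate was not checked on counts. In these bulk values, a change in the share of cells that express a gene and a change in RNA per cell cannot be told apart.

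The joined locus of Phf11d, Phf11c and Setdb2 (XLOC_008138, chr14:59966244-60059714 in mm9) had 19.1 FPKM in the naive and 209 FPKM in the pretreated library. It was the most abundant of the 5 loci in both libraries. The ratio was 10.9, and the authors' deposited table gives a log2 fold change of 3.45. The statistic has the opposite sign to the fold change throughout the table, so its absolute value was used: dividing by it gives a read-level standard error of 0.26 and a 95% interval of 7.67-fold to 15.5-fold, which covers the error of these 2 libraries under their model and not the variation between cultures.

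Phf11b (XLOC_008137, uc011zml.1, chr14:59939801-59960167) stood at 3.46 FPKM in the naive library and 57.6 FPKM in the pretreated one. The ratio was 16.6, with an interval of 9.71 to 28.5 by the same reading of the authors' statistic. Its level thus passed from below that of Cab39l (15.3 FPKM in naive cells) to above it (9.49 FPKM in pretreated cells).

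Phf11a (XLOC_008136, uc007uee.2, chr14:59895750-59916359) was measured at 0.707 FPKM in naive cells and at 13.5 FPKM after pretreatment. The naive level was below 1 FPKM, a level at which few reads can carry the value. The ratio was 19.1, with an interval of 9.85 to 37.1.

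Gm6904, the RefSeq Phf11 pseudogene (XLOC_008135, uc011zmk.1, chr14:59863278-59879053), had 0.164 FPKM in the naive library against 3.36 FPKM in the pretreated library. It was the lowest of the 5 loci in both libraries and passed the minimum mean of 1 FPKM only through its pretreated value. The ratio was 20.6, and its interval, 6.28 to 67.3, was the widest of the 5 loci. The authors' deposited table gives it a q-value of 2.96e-05, and lists the q-values of Phf11a, Phf11b and the joined locus as 0.

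Cab39l (XLOC_007614, chr14:60059802-60167740) had 15.3 FPKM in the naive library and 9.49 FPKM in the pretreated one. The authors' deposited table gives a log2 fold change of -0.69, whose read-level standard error is 0.29, and did not call it, at a q-value of 0.0859. The joined locus, which ends 87 bp before Cab39l, was 10.9-fold higher, against 1.61-fold lower and not called at Cab39l. The 10.9-fold is 1 value for Phf11d, Phf11c and Setdb2. It does not show the level of Setdb2, the gene next to Cab39l. The RefSeq window of the nearer Cab39l start overlaps that of Setdb2 on the opposite strand, so its 33 CpG and the 29 of Setdb2 are in part the same bases.

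**Figure D1:**
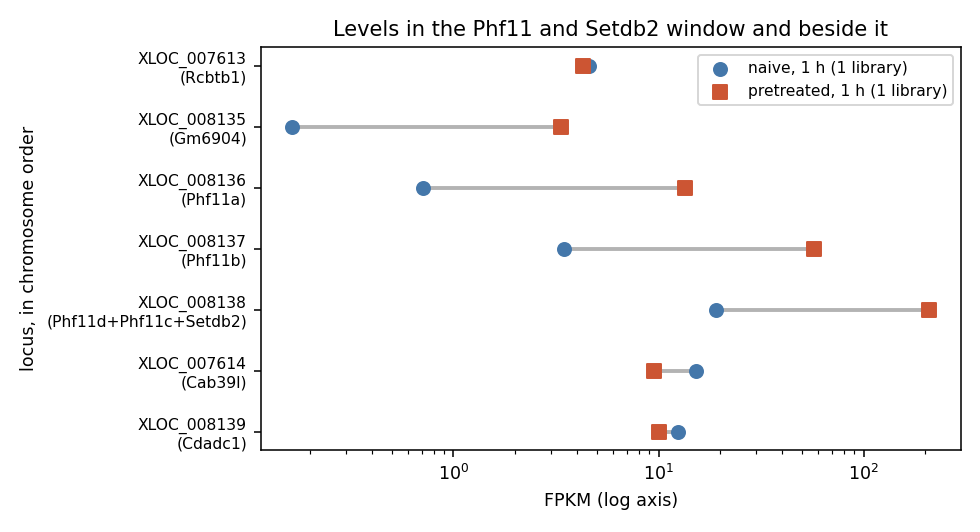
FPKM (log axis) of the 5 window loci and of their neighbours Rcbtb1 and Cdadc1 in chromosome order. Naive values are circles and pretreated values squares, 1 library each, and names in brackets rest on spacing. The 4 loci from Gm6904 to the joined locus were higher by 10.9-fold to 20.6-fold, while Rcbtb1, Cab39l and Cdadc1 stayed within 2-fold.

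The 4 loci kept the same order of abundance in both libraries: the joined locus, Phf11b, Phf11a, Gm6904. In naive cells each was 5.53, 4.90 and 4.32 times the next, and in pretreated cells 3.62, 4.26 and 4.02 times. The joined locus adds Phf11d, Phf11c and Setdb2, so its steps and shares are not those of a single gene. Reads can be shared between the copies, so the steps between the other loci are uncertain too. With these limits, the levels of the 4 loci followed the order on the chromosome, with the lowest locus farthest from Setdb2. Their sum was 23.5 FPKM in the naive library against 283 FPKM in the pretreated one, a ratio of 12.1, and the joined locus made up 81.5% of it in naive and 73.7% in pretreated cells. Phf11b made up 14.7% and 20.3%.

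The ratio fell as the naive level rose, from 20.6 at Gm6904 to 10.9 at the joined locus. The naive level is also the denominator of the ratio. The read-level intervals of the 4 loci overlap. Differences between their deposited log2 fold changes, with errors taken as independent, had 95% read-level intervals that held 0 in 6 of 6 pairs. The joined locus minus Gm6904, for example, gave -0.91, with an interval of -2.70 to 0.87. By these intervals the fall in ratio is not separated from read-level error. Errors may not be independent where copies share reads, which was not tested. A difference between cultures was not tested either.

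The order of change depends on the scale. On log2(FPKM + 1), which holds down ratios of low values, the changes were 1.91 at Gm6904, 3.09 at Phf11a, 3.72 at Phf11b and 3.38 at the joined locus, and -0.63 at Cab39l. Gm6904, with the highest ratio, thus had the smallest difference of the 4 on this scale. By size of change the 4 loci ranked 108, 47, 26 and 39 among 10228 loci with a mean of at least 1 FPKM.

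**Figure D2:**
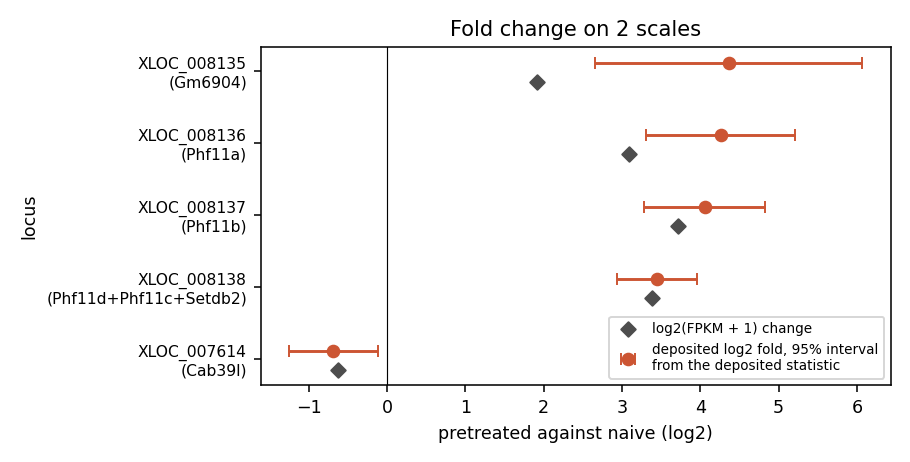
Pretreated against naive in log2 units for the 5 window loci, as the deposited log2 fold change with the 95% interval implied by the authors' statistic (circles and bars) and as the change of log2(FPKM + 1) (diamonds). The circles of the 4 upper loci overlap in their intervals, while the diamonds run from 1.91 to 3.72.

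Of the 5 loci, all of which had a mean of at least 1 FPKM, 4 were at least 2-fold higher on the log2(FPKM + 1) scale and 0 were lower by as much. Over all 10228 loci compared, 2.83% were past 2-fold on the higher side and 7.12% on the lower side. The authors' deposited table called the same 4 loci, and 3.91% of its 13388 tested loci were called higher and 11.9% lower. The median change of the 5 loci was 3.09, and of all loci -0.16. Because the window was chosen on this contrast, nothing is read from these counts.

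**Figure D3:**
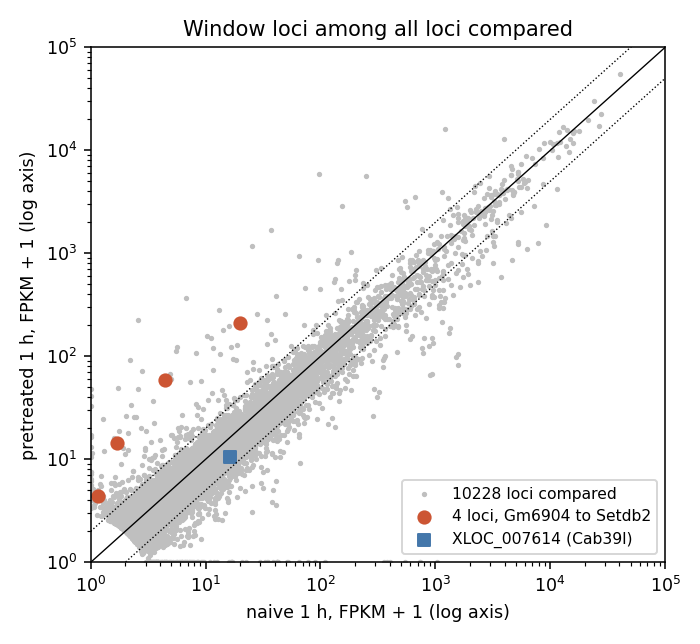
FPKM + 1 in the pretreated against the naive library (log axes), with 10228 compared loci in grey, a solid line of no change and dotted lines at 2-fold. The 4 loci from Gm6904 to the joined locus lie above the dotted band and Cab39l lies within it.

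The higher values ended at the next locus on each side. Before the window, the next locus with a transcript ID was XLOC_007613, 7175 bp from Gm6904, which has the start and end distances of Rcbtb1, a gene for a protein with RCC1 and BTB domains. It had 4.57 FPKM and 4.26 FPKM in the naive and pretreated libraries. Beyond Cab39l, XLOC_008139, at the distances of Cdadc1 (a gene for a protein with a cytidine deaminase domain), had 12.5 FPKM and 10.0 FPKM.

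Within 1 Mb of the window there were 5 further loci with a transcript ID, 1 before and 4 after it, of which 4 passed the minimum level. None of these 4 changed by 2-fold, and their changes ran from -0.64 to -0.08 on the log2(FPKM + 1) scale. The authors' deposited table called 0 of the 5. XLOC_007615, the shortest of them at 6380 bp, was at 0.00938 FPKM in the naive library and at 0 in the pretreated one. XLOC_008141, the next after it, had 2.53 FPKM and 1.69 FPKM. The next loci before the window after XLOC_007613 were over 1 Mb away: XLOC_007612 was at 0.0487 FPKM in the naive library and at 0 in the pretreated one, and XLOC_007611 had 1.49 FPKM and 2.66 FPKM. On the whole of chromosome 14, 14 of 379 compared loci were at least 2-fold higher (3.69%), the 4 loci of the cluster among them, and 34 were lower by as much, with a median change of -0.17.

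**Figure D4:**
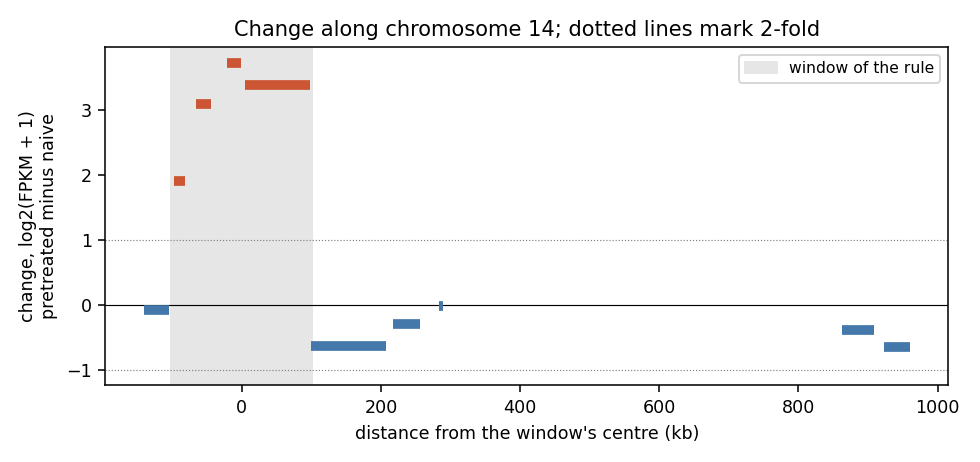
Change of log2(FPKM + 1), pretreated minus naive, for each locus with a transcript ID within 1 Mb of the window (grey), drawn to scale by distance from its centre in kb. Bars of the 4 loci from Gm6904 to the joined locus lie between 1.91 and 3.72, and all other bars lie between -0.64 and -0.01.

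Copies of Phf11 are alike enough for reads to be shared between them, so the division of FPKM among Gm6904, Phf11a, Phf11b and the joined locus is uncertain. Over aligned bases, the longest open reading frames in GENCODE were 97.0% identical between Phf11a and Phf11b and 89.1% between Phf11a and Phf11d. Gm6904 and Phf11a were 95.9% identical over 609 bases, the whole Gm6904 frame but only part of the 882 bases of Phf11a. Phf11c was 80.5% to 85.5% identical to the others. Read length is not given in the sources used here, so exact repeats were counted at several lengths. At 50 bases, 47.0% of the stretches in Phf11b transcripts, 35.2% in Phf11a, 27.1% in Gm6904, 10.2% in Phf11c and 7.98% in Phf11d recurred in another gene of the cluster. At 75 bases the share in Phf11b was 26.8%, and at 36 bases 58.8%. Setdb2 shared 0 stretches with the Phf11 copies at any of these lengths, so reads from Setdb2 can be told from reads of Phf11 genes, but the deposited locus adds them together. How the authors divided reads with several matches is not given in the sources used here, and its part in the values of the copies was not tested.

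**Figure D5:**
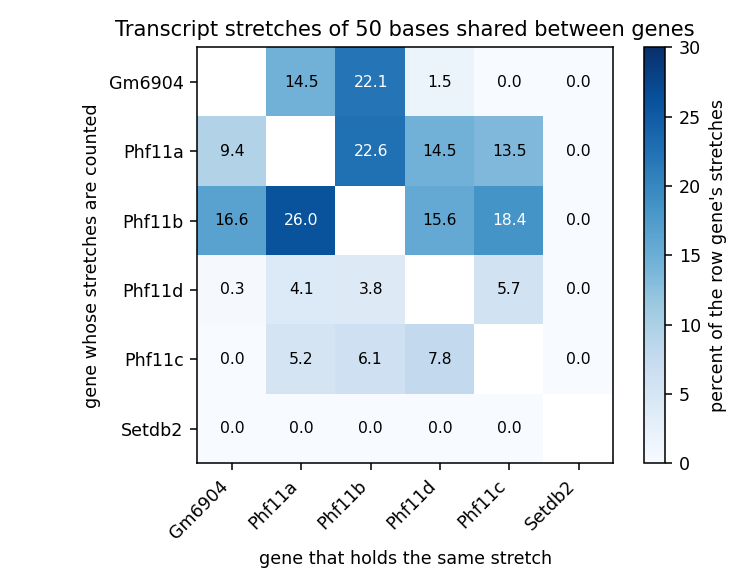
Percent of the 50-base stretches in the GENCODE transcripts of each gene (rows) that occur in the transcripts of another gene (columns). Phf11b shares 26.0% with Phf11a and Phf11a 22.6% with Phf11b, while the row and the column of Setdb2 are at 0.

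The other runs of at least 3 neighbouring loci with a 2-fold higher value in pretreated cells lay on chromosomes 1, 7, 15 and 17. Neighbouring means consecutive among loci with a transcript ID and a mean of at least 1 FPKM, with 1 locus kept of each overlapping group. Loci that were left out can thus lie inside a run, and the run on chromosome 7 reached from 113043633 to 113672726. In naive cells the 4 loci of the Phf11 and Setdb2 run spanned 0.164 to 19.1 FPKM, and the run on chromosome 1 spanned 0.166 to 89.7 FPKM. The naive ranges were 1.33 to 1.45 FPKM on chromosome 7, 22.1 to 2204 FPKM on chromosome 15 and 1.26 to 6.36 FPKM on chromosome 17. In pretreated cells the Phf11 and Setdb2 run spanned 3.36 to 209 FPKM and the run on chromosome 1 spanned 4.03 to 202 FPKM. Their lowest and highest values were thus nearly the same, and the levels between were not compared. On log2(FPKM + 1) the median change was 3.23 in the Phf11 and Setdb2 run and 1.94 on chromosome 1. It was 1.69 on chromosome 7, 1.21 on chromosome 15 and 2.25 on chromosome 17. Each run was picked for its higher values. These values are set side by side only, since 1 library per group allows no test of a difference.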

How the data were processed

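Of the 4 libraries of MEF RNA in the series, 2 were analysed. These were naive and pretreated cells, each after 1 h of interferon-beta, with 1 library per group. The authors deposited 1 table with an FPKM value per locus and library, a log2 fold change (other than a plain log2 scale where a value is 0, since placeholders stand there), a test score, p-values and q-values; per the file headers its layout is that of Cuffdiff. The submitters' processing notes name TopHat, Cufflinks 1.2.1 and mm9 without their roles; annotation, filters and the treatment of reads with several matches are not given in the sources used here. Libraries were assigned to the columns of values through the sample names that stand in every row.

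The deposited p-values equal the normal tail of the deposited score to within 2.86e-06, so the log2 fold change divided by the score, in absolute value, gives its read-level standard error; score and fold change were of opposite sign at all 13009 tested loci with values above 0 in both libraries. Changes were differences of log2(FPKM + 1) at loci with a mean of at least 1 FPKM, leaving out 24 loci of status FAIL or HIDATA. No test across samples was run. Relative depth (0.492, pretreated to naive) was estimated from 14 loci without an ID that were listed at 0 in 1 library. Their p-values were taken as those of 1 to 4 reads. Starts were raised by 1.

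Members and lists were chosen with earlier results of these data known. All loci of the window and the nearest 3 with an ID on each side are named. Names by spacing, a comparison of distances and spans within each build, the looser motif and the shared stretches were added after the data were seen; no coordinate was converted, and printed sequences are from GRCm38.p6. The planned protein comparison was not run, and open reading frames (from the first fitting ATG to the stop, longest per gene, aligned with Biopython 1.88) were compared. Python 3.11.15, pandas 2.3.3 and scipy 1.17.1 were used, and counting was tested on simulated data. Alternatives were a pseudocount of 0.1, centring, other minimum levels, a 4-fold threshold, the authors' calls and other sets of loci.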

Additional observations from a re-analysis of the deposited data

How the results depend on the processing

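The 4 higher loci kept their direction under every alternative run, but this could not have come out otherwise. They were chosen as higher in this contrast, and none of the alternatives can reverse ratios of 10.9 to 20.6. A pseudocount of 0.1 gave changes of 3.72 for XLOC_008135 and 4.08 for XLOC_008136 and a median of 3.72 for the window, and the deposited log2 fold changes, added after seeing the data, were 4.36 and 4.26; these loci are low in naive cells, where the pseudocount weighs most. The count of higher loci in the window was 3 at a minimum mean of 5 FPKM and at a 4-fold threshold, both of which drop XLOC_008135, and 4 under the others. Over all loci, against 289 higher and 728 lower, there were 465 and 1175 with a pseudocount of 0.1, 176 and 452 at a minimum mean of 5 FPKM, 99 and 143 at 4-fold, 523 and 1598 by the authors' calls, and 391 lower among loci with a transcript ID; centring on the median of -0.16 gave 423 higher and 527 lower, which puts higher loci nearer to lower ones. No paired analysis was possible because there is 1 library in each group, and for the same reason no replicate could be left out. The estimated relative depth was 0.492, pretreated to naive, which would limit low values most.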
